A study of Mus musculus with 24 samples.

Results

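Chaperones and folding enzymes of the endoplasmic reticulum (ER) were measured in the livers of female NMR-1 mice, 8 weeks old at the start, that ate 1 of 4 diets for 2 weeks. The pellet diet was the standard food on which the mice were raised. The chimpanzee diet consisted of fruit, vegetables and yogurt, the cafeteria diet of cooked meals from a canteen, and the fast food diet of hamburger restaurant food. Each diet was given to 6 mice, 3 in batch 1 and 3 in batch 2, and the cafeteria and fast food mice together are called the 12 human diet mice. No transgene, deletion or drug was used, and all groups shared strain, sex, age and tissue, so that food and its intake were what differed by design. The genes were Creld2, Sdf2l1, Manf, Dnajb11, Pdia4, Pdia6, Hspa5, Hsp90b1, Fkbp11 and Calr, 10 of the 13384 genes that were tested on the array. They had been chosen by expression values of these same mice. Which comparison of diets was used for that is not stated, and differences from the pellet diet, where the genes were known to be lower, were taken as the ones used. They are therefore given as description, with no test.

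Proteins that a cell secretes or places in its membranes are threaded into the ER, where chaperones hold them until they are folded, lectins read their sugar chains, and disulfide isomerases join and reshuffle their cysteine bonds. Liver cells secrete most proteins of blood plasma and so depend heavily on this machinery. When unfolded proteins build up, the sensors Ern1 (IRE1), Atf6 and Eif2ak3 (PERK) start the unfolded protein response, in which Xbp1 and the cleaved form of Atf6 bind to promoters of chaperone genes and raise their transcription. The best known binding sequence is the ER stress response element, or ERSE, in which a CCAAT box for the factor NF-Y lies a fixed distance from a CCACG box for Atf6 and Xbp1.

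RefSeq promoter windows (mouse build GRCm38.p6, 250 bases before to 50 bases after a start site) were given for 9 of the 10 genes. They were searched on both strands for ERSE, spelled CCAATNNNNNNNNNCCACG, for ERSE-II, which reads ATTGG, any 1 base, then CCACG, and for the core TGACGTG that Xbp1 and Atf6 can bind. The spellings share some letters, but no match of one overlapped a match of another in these windows. ERSE was found in the windows of 5 of these 9 genes (Calr, Creld2, Hsp90b1, Hspa5 and Pdia6), against 0.137% of all 27025 genes and 0.119% of all 32851 windows. The stretches that hold it are printed because the same element occurs in genes of different roles. Capitals mark the CCAAT and CCACG boxes, or ATTGG and CGTGG where the element lies on the opposite strand. All are written 5′ to 3′ along the strand of the gene. They lie at chr2:34772010-34772058 on the + strand for Hspa5, chr10:86705518-86705671 on the - strand for Hsp90b1, chr8:84847060-84847108 on the - strand for Calr, chr12:17266476-17266524 on the + strand for Pdia6 and chr15:88819505-88819553 on the + strand for Creld2, all upstream of the start site.
Hspa5: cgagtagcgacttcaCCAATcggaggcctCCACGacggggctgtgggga
Hsp90b1: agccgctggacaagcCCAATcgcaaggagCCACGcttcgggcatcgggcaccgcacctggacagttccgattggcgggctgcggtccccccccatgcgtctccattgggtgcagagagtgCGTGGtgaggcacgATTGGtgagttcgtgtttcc
Calr: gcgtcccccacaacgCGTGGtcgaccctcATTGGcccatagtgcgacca
Pdia6: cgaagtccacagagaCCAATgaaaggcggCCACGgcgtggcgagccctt
Creld2: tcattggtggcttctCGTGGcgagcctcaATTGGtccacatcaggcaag

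The element of Hspa5 began 65 bases before the start site, that of Pdia6 98, that of Creld2 126 and that of Calr 162. Hsp90b1 held 2 elements in opposite orientation, which began 212 and 107 bases before its start site. Dnajb11 held ERSE-II just after its start site, against 0.0444% of all genes and 0.0365% of all windows. TGACGTG was found in Hspa5 and Fkbp11, against 2.22% of all genes and 2.01% of all windows. Sdf2l1 and Pdia4 held none of the 3 spellings in these windows, which says only that these letters do not occur there. Among 34 other ER folding genes with a window, ERSE occurred in 3 (Canx, Dnajc3 and Ero1b), and among 23 cytosolic and mitochondrial chaperones in 0. The matches describe sequence and not binding.

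**Figure D1:**
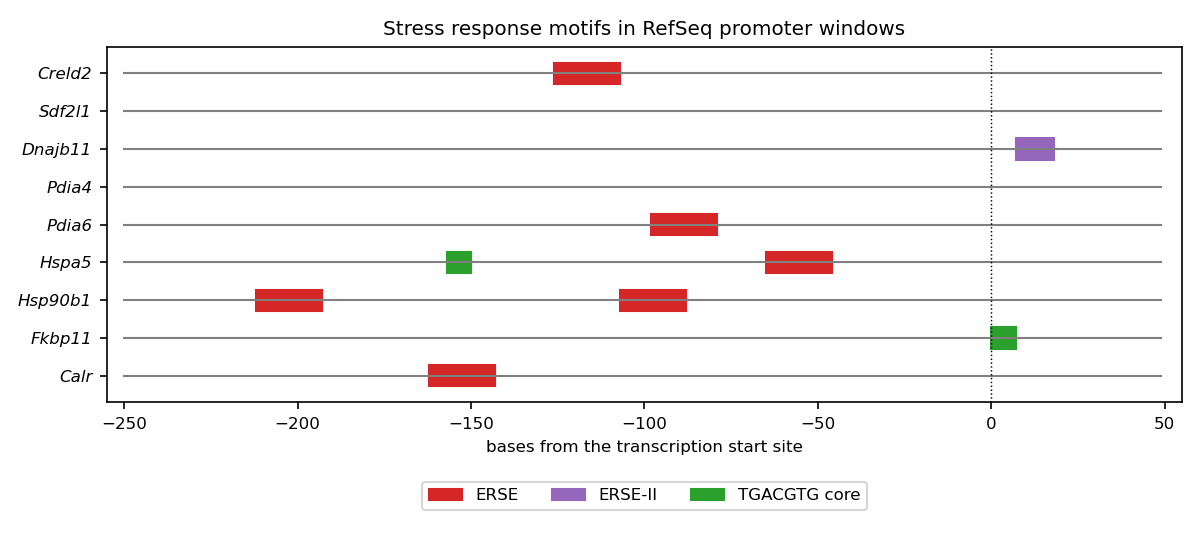
Positions of ERSE (red), ERSE-II (purple) and the TGACGTG core (green) in the promoter windows of 9 genes, in bases from the transcription start site (dotted line). ERSE lies before the start site in 5 genes, at 2 places in Hsp90b1.

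Expression is given throughout as log2 values made by rma, in which a difference of 1 is a doubling. Hspa5 (BiP), the abundant chaperone that binds newly made chains and keeps the stress sensors inactive, ranged from 9.71 to 10.30 in the pellet mice, with a median of 10.01. In the cafeteria mice the lowest, median and highest values were 9.26, 9.52 and 9.85, in the fast food mice 8.88, 9.52 and 9.88, and in the chimpanzee diet mice 8.96, 9.87 and 10.37. Most human diet mice lay below all pellet mice, but 3 of the 12 overlapped with them, and 4 of the 6 chimpanzee diet mice did. The difference from pellets was -0.48 ± 0.11 (SE) for the human diets, or 1.40-fold lower, and -0.18 ± 0.16 for the chimpanzee diet. By batch the second difference was 0.11 in batch 1 and -0.47 in batch 2, so its sign was not the same in both.

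Dnajb11 (ERdj3) is a soluble J protein that hands unfolded chains to Hspa5. Its lowest, median and highest values were 7.26, 7.40 and 7.77 on pellets, 6.52, 6.73 and 7.14 on the cafeteria diet, and 6.29, 6.63 and 6.89 on fast food. All 12 human diet mice lay below all 6 pellet mice. On the chimpanzee diet the values ran from 6.57 through a median of 6.86 to 7.53, and 2 mice reached the pellet range. The differences from pellets were -0.76 ± 0.09 for the human diets and -0.49 ± 0.12 for the chimpanzee diet.

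Sdf2l1, a partner of Dnajb11 in holding unfolded clients, stood apart from pellets in every mouse of the other 3 diets. Pellet mice ranged from 5.77 to 6.69 with a median of 6.24, whereas the chimpanzee diet mice ranged from 4.02 to 5.01 (median 4.54), the cafeteria mice from 4.24 to 5.04 (median 4.81) and the fast food mice from 4.08 to 5.33 (median 4.59). The decrease was 2.94-fold on the human diets (-1.55 ± 0.16) and 3.18-fold on the chimpanzee diet (-1.67 ± 0.19). It was present in both batches, at -1.42 and -1.68 for the human diets and at -1.41 and -1.92 for the chimpanzee diet.

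Manf, a small secreted protein of the ER that binds Hspa5, was 8.04 to 8.64 in pellet mice with a median of 8.19. It was 7.03 to 7.55 (median 7.16) in cafeteria mice and 6.32 to 7.78 (median 7.44) in fast food mice, with no overlap with pellets. The chimpanzee diet mice covered a far wider range, from 6.17 to 8.77 with a median of 7.70. Their highest value was above every pellet mouse and their lowest was below every human diet mouse. The human diets lay below pellets by 1.97-fold (-0.98 ± 0.14), and the chimpanzee diet by -0.52 ± 0.26, made up of 0.0021 in batch 1 and -1.03 in batch 2.

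Creld2, a cysteine-rich ER protein with disulfide isomerase activity, had the largest human diet difference of the 10 genes. Values were 6.47 to 7.42 on pellets (median 7.08), 4.67 to 5.45 on the cafeteria diet (median 5.14) and 4.72 to 5.87 on fast food (median 5.39). The gap between the groups was 3.39-fold in means, at -1.76 ± 0.16, with -1.54 in batch 1 and -1.98 in batch 2. On the chimpanzee diet Creld2 spread from 4.31 to 7.41 with a median of 5.86, and its SD of 1.11 over 6 mice was about 3 times that of the pellet mice (0.36). The mean difference of the chimpanzee diet from pellets was -0.94 ± 0.31.

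Pdia4 and Pdia6 are thioredoxin-like isomerases that make and correct disulfide bonds. Pdia4 had a lowest, median and highest value of 7.78, 7.96 and 8.19 on pellets, 7.02, 7.29 and 7.49 on the chimpanzee diet, 7.24, 7.43 and 7.62 on the cafeteria diet and 7.11, 7.53 and 7.80 on fast food. Only 1 fast food mouse reached the pellet range. Pdia4 was the gene with the largest excess of the chimpanzee diet decrease (-0.69 ± 0.11) over the human diet decrease (-0.51 ± 0.09). Pdia6 was 8.75 to 9.14 on pellets (median 8.92), 8.00 to 8.78 on the chimpanzee diet (median 8.21), 7.97 to 8.72 on the cafeteria diet (median 8.45) and 7.94 to 8.64 on fast food (median 8.42). Its differences from pellets were -0.56 ± 0.10 for the human diets and -0.62 ± 0.12 for the chimpanzee diet.

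Hsp90b1 (GRP94), the Hsp90 of the ER, had the smallest human diet difference, -0.33 ± 0.09 or 1.26-fold, and the groups overlapped on every diet. Its lowest, median and highest values were 9.61, 9.94 and 10.03 on pellets, 9.15, 9.63 and 9.77 on the chimpanzee diet, 9.29, 9.59 and 9.74 on the cafeteria diet and 9.07, 9.62 and 9.82 on fast food. Calr, the lectin chaperone that holds glycoproteins in the ER, was tightest on pellets, at 10.34 to 10.51 with an SD of 0.065 over 6 mice. All 18 other mice lay lower, with 9.60 to 10.27 on the chimpanzee diet, 9.85 to 10.19 on the cafeteria diet and 9.39 to 10.18 on fast food. The Calr differences from pellets were -0.53 ± 0.09 for the human diets and -0.55 ± 0.11 for the chimpanzee diet.

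Fkbp11, a membrane-bound prolyl isomerase of secretory cells, was 5.85 to 6.36 on pellets (median 5.93). All mice of the other diets were lower, at 4.72 to 5.78 (median 5.22) on the chimpanzee diet, 4.54 to 5.21 (median 4.98) on the cafeteria diet and 4.76 to 5.25 (median 5.01) on fast food. The differences were -1.07 ± 0.11 for the human diets, a 2.10-fold decrease, and -0.82 ± 0.15 for the chimpanzee diet.

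**Figure D2:**
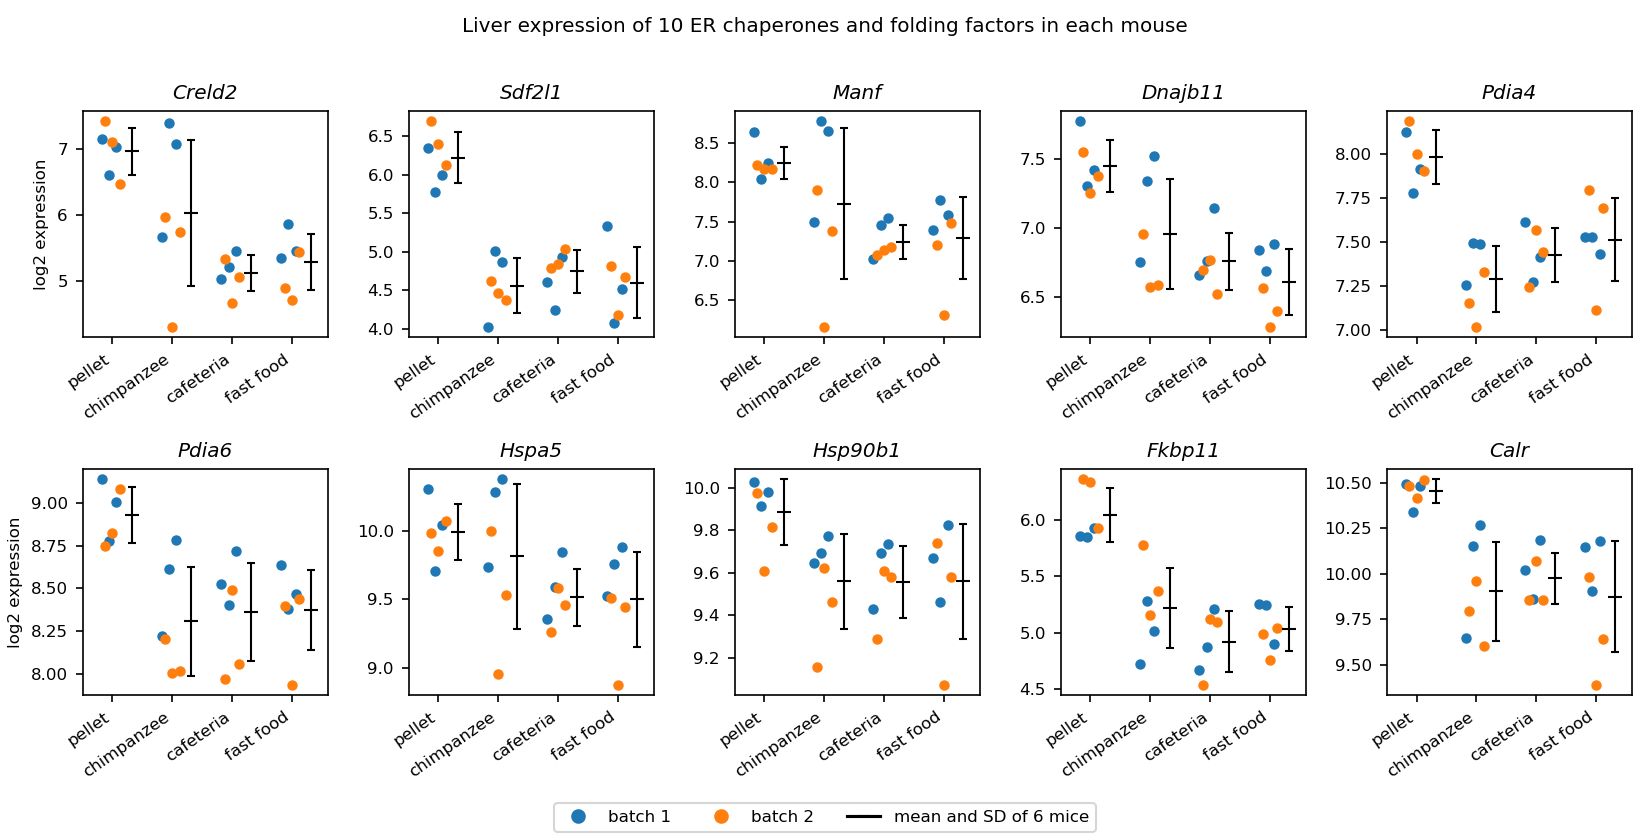
Log2 expression of each of the 10 genes in each of 24 mice (points, coloured by batch) on 4 diets, with the mean and SD of 6 mice beside them. The pellet mice lie highest for most genes, and the chimpanzee diet mice are spread widest for Creld2, Manf and Hspa5.

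Over the 10 genes the median difference from pellets was -0.66 for the human diets, against -0.0057 over all genes tested, and -0.59 for the chimpanzee diet, against -0.0044. For 7 of the 10 genes every human diet mouse lay below every pellet mouse, a pattern seen in 0.426% of all genes. The exceptions were Pdia4, Hspa5 and Hsp90b1. For 4 genes (Sdf2l1, Pdia4, Fkbp11 and Calr) every chimpanzee diet mouse lay below every pellet mouse, against 2.35% of all genes. Since these differences were taken as those by which the genes were chosen, or share the pellet mice with them, nothing is read from either count. In liver tissue taken whole, fewer cells of a type and less RNA per cell cannot be told apart.

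Relative to the mean of the 3 pellet mice of the same batch, 60 of 60 cafeteria values, 60 of 60 fast food values and 52 of 60 chimpanzee diet values of the 10 genes were lower. The 8 exceptions came from 3 chimpanzee diet mice. Replicate 2 of batch 1 was higher than its pellet mean for Creld2 (0.47), Manf (0.47) and Hspa5 (0.27), and replicate 3 of batch 1 for Creld2 (0.14), Manf (0.35), Hspa5 (0.36) and Dnajb11 (0.03). Replicate 1 of batch 2 was level with its pellet mean for Hspa5 (0.03). In the same pair of batch 1 mice Sdf2l1 stood at -1.04 and -1.18 from its pellet mean, Fkbp11 at -0.60 and -0.87, and Pdia4 at -0.45 in each. At the other end, replicate 2 of batch 2 on the chimpanzee diet had -2.70 for Creld2, -2.02 for Manf and -1.01 for Hspa5. All 8 exceptions were values of Creld2, Manf, Hspa5 or Dnajb11, and the other 6 genes lay below their pellet mean in all 6 chimpanzee diet mice. Without replicate 2 of batch 2 the chimpanzee diet difference was -0.63 for Creld2, -0.24 for Manf and -0.03 for Hspa5.

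**Figure D3:**
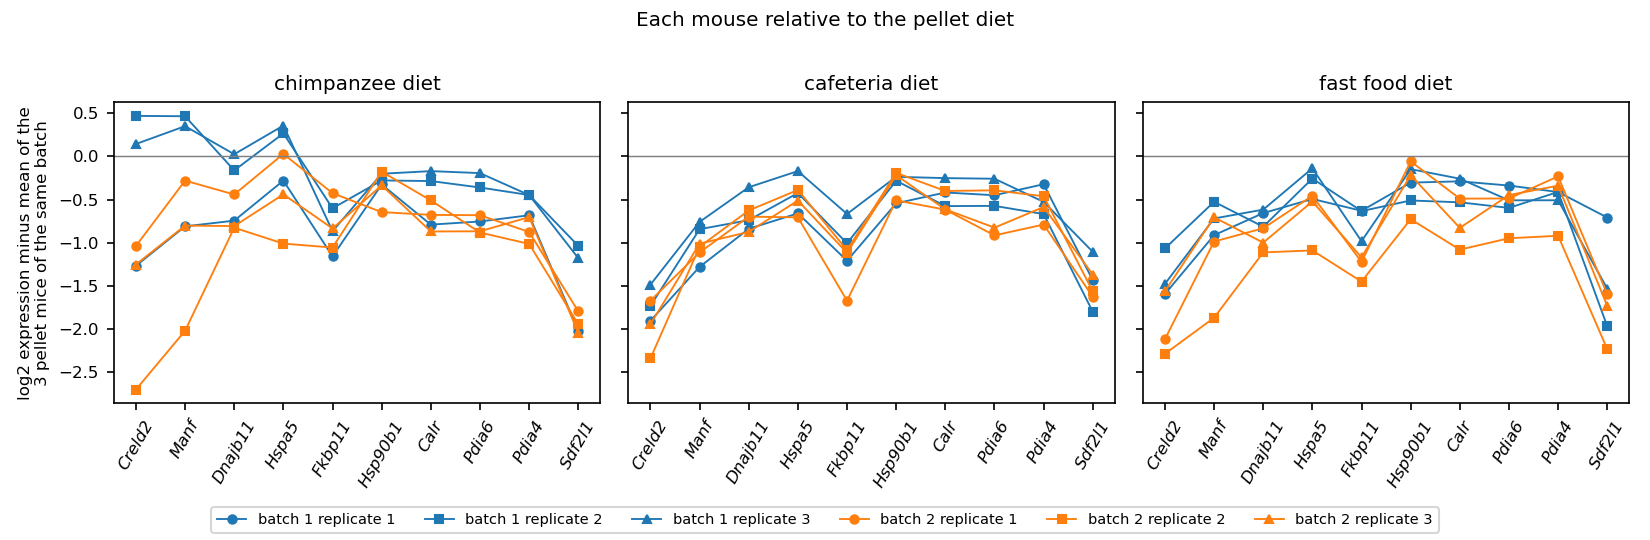
Log2 expression of each gene in each mouse minus the mean of the 3 pellet mice of its batch, for the chimpanzee, cafeteria and fast food diets, with 1 line per mouse. Chimpanzee diet replicates 2 and 3 of batch 1 lie at or above the pellet level for Creld2, Manf and Hspa5 and below it for Sdf2l1, where all 18 mice are low.

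Human diets were then compared with the chimpanzee diet, the question at the centre of the study. The p-values and intervals below assume that this comparison played no part in the choice of the genes, which is not known, and it shares the 12 human diet mice with human minus pellet. By limma over all 13384 genes, 3 of the 10 had an unadjusted p under 0.05. The share of all genes at that threshold was not counted, so nothing is read from the 3. An adjusted p of 0.05 was passed by 0 of the 10, while 0.344% of all genes were called lower and 1.15% higher. Creld2 came closest, at -0.82 ± 0.26 (95% interval -1.38 to -0.27, limma adjusted p = 0.128), with -1.32 in batch 1 and -0.32 in batch 2. The others with an unadjusted p under 0.05 were Dnajb11 (-0.27, interval -0.50 to -0.04, adjusted p = 0.243) and Hspa5 (-0.30, interval -0.60 to -0.0068, adjusted p = 0.333). Manf differed by -0.46 with an interval of -0.96 to 0.03. For Sdf2l1 the difference was 0.11 (interval -0.25 to 0.47), for Calr 0.02 (-0.20 to 0.24), for Hsp90b1 -0.0017 (-0.20 to 0.20) and for Pdia6 0.06 (-0.15 to 0.27). Pdia4 was the member that leaned furthest the other way, at 0.18 with an interval of -0.02 to 0.38, and Fkbp11 was at -0.25 (-0.52 to 0.03). The median of the 10 was -0.12, against 0.0040 over all genes. Creld2 passed the threshold when chimpanzee diet replicate 2 of batch 2, the mouse with the lowest Creld2, was left out (-1.12). Then 1 of 10 was called, against 62 of all 13384 genes.

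Between the cafeteria and fast food diets, under the same assumption on the choice of genes, 0 of the 10 genes passed by limma and 0 had an unadjusted p under 0.05. Over all genes 0% were called lower and 0.00747% higher, which was 1 gene (Ang). The largest difference of the 10 was that of Creld2, -0.16 ± 0.31 (interval -0.79 to 0.47), followed by Dnajb11 at 0.15 ± 0.12 (-0.11 to 0.41) and Sdf2l1 at 0.15 ± 0.19 (-0.26 to 0.55). Hsp90b1 (-0.0026, interval -0.22 to 0.22), Pdia6 (-0.01, -0.26 to 0.23) and Hspa5 (0.02, -0.32 to 0.36) were the closest to 0. All 10 adjusted p-values were 0.998, and the median was -0.0086.

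**Figure D4:**
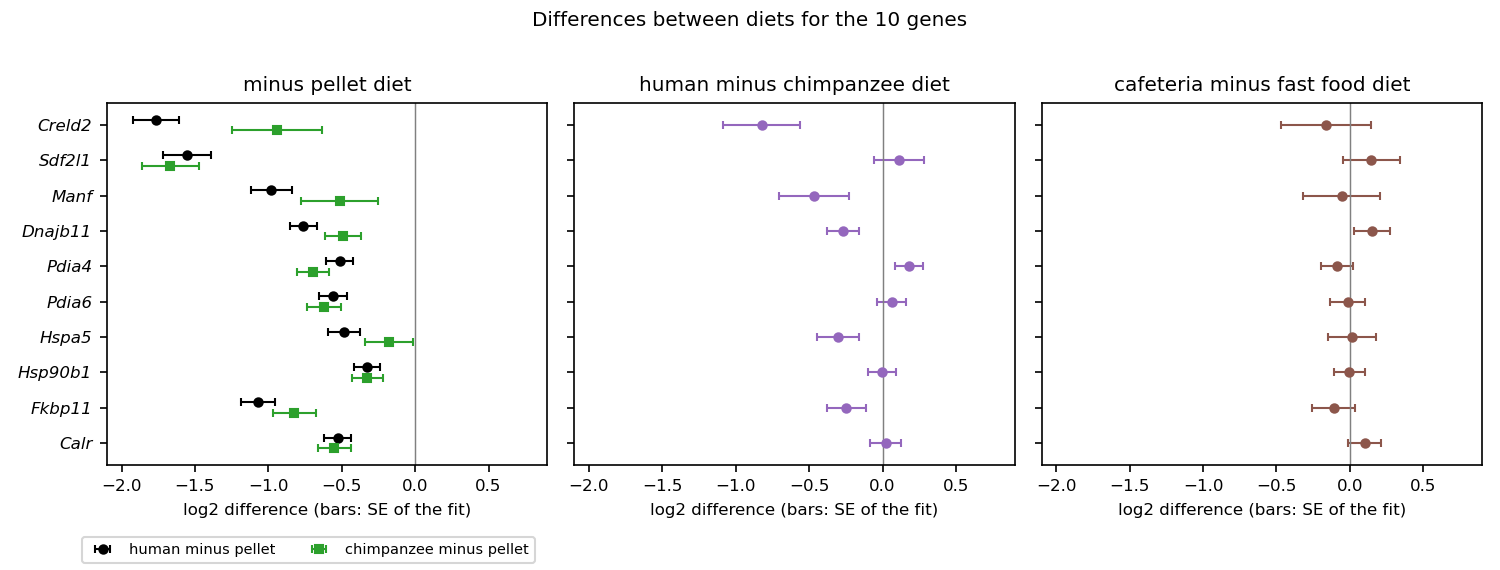
Log2 differences between diets for the 10 genes, with the SE of the limma fit as bars. Both differences from pellets lie below 0 for each gene, human minus chimpanzee is most negative for Creld2 (-0.82), and cafeteria minus fast food stays between -0.16 and 0.15.

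The array carries 19 probe sets for the 10 genes, of which 17 lay above the level set for expression. Each gene is represented above by its brightest probe set. Calr had 2 further bright ones, with -0.54 and -0.55 for the human diets, and Hsp90b1 had another with -0.53, larger than the -0.33 of the one used. The second probe set of Hspa5 gave -0.44 for the human diets and -0.19 for the chimpanzee diet, close to the first. A dimmer one, with a mean of 6.06 on pellets, went the opposite way, at 0.08 and 0.21. The remaining probe sets of Pdia4, Pdia6 and Fkbp11 were near the floor of the array and differed from pellets by between -0.03 and -0.0080 on the human diets.

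Most other ER folding factors lay on the same side, though fewer passed the test. Of 36 that were tested, 8 fell and 1 rose on the human diets relative to pellets (limma adjusted p of 0.05), against 2.82% lower and 2.15% higher over all genes, and 10 fell and 1 rose on the chimpanzee diet, against 7.43% and 2.93%. The medians were -0.14 and -0.23, and 30 and 28 of the 36 had a negative difference. Hyou1, an Hsp70-like exchange factor for Hspa5, went from 6.67 to 7.59 on pellets (median 7.04) to 6.03 to 6.85 (median 6.20) on the cafeteria diet and 5.71 to 6.48 (median 6.23) on fast food. It fell on the human diets (-0.83 ± 0.13, adjusted p = 0.000319) and was at -0.52 ± 0.17 (adjusted p = 0.0509) on the chimpanzee diet. Hspa13, another Hsp70 relative of the ER, fell on both (-1.01 ± 0.15, adjusted p = 0.00031, and -0.76 ± 0.21, adjusted p = 0.0228). So did Uggt1, which marks unfolded glycoproteins for another round with Calr (-0.74 ± 0.11, adjusted p = 0.00031, and -0.54 ± 0.15, adjusted p = 0.0184), and the isomerase Pdia3, which works with Calr (-0.52 ± 0.11, adjusted p = 0.00602, and -0.70 ± 0.13, adjusted p = 0.000795). Qsox1, a sulfhydryl oxidase, fell on the human diets (-0.53 ± 0.09, adjusted p = 0.00141) and was at -0.29 ± 0.12 on the chimpanzee diet (adjusted p = 0.129).

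The exception was Dnajb9 (ERdj4), a J protein of Hspa5 that holds the sensor Ern1 inactive and assists the removal of misfolded proteins. It rose, from 6.11 to 7.32 on pellets (median 7.09) to 7.20 to 7.94 (median 7.69) on the cafeteria diet, 6.56 to 8.09 (median 7.76) on fast food and 6.88 to 8.77 (median 8.04) on the chimpanzee diet. The differences were 0.72 ± 0.15 for the human diets (adjusted p = 0.00539) and 1.18 ± 0.21 for the chimpanzee diet (adjusted p = 0.000559), with the same sign in both batches. Between the human and the chimpanzee diets 0 of the 36 passed by limma, against 0.344% lower and 1.15% higher over all genes. An unadjusted p under 0.05 was reached by 8, and the share of all genes at that threshold was not counted. On the human diets the 8 lower calls fell to 5 when any 1 of pellet replicates 1 or 3 of batch 1 or 1 or 2 of batch 2 was left out. On the chimpanzee diet the 10 lower calls fell to 3 without chimpanzee diet replicate 2 of batch 2. They fell to 5 without pellet replicate 1 or 3 of batch 1 or 3 of batch 2, and to 6 without chimpanzee diet replicate 1 of either batch.

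Sensors and factors of the unfolded protein response went in both directions, and most did not pass the test. Of 21 regulators tested, 2 fell and 2 rose on the human diets, against 2.82% and 2.15% of all genes, and 2 fell and 3 rose on the chimpanzee diet, against 7.43% and 2.93%, so that the lower count on the chimpanzee diet was near that of all genes. Xbp1 did not pass in either comparison (-0.25 ± 0.13, adjusted p = 0.434, and -0.24 ± 0.14, adjusted p = 0.334). Atf6 was at -0.0058 ± 0.11 on the human diets and rose by 0.45 ± 0.12 on the chimpanzee diet (adjusted p = 0.0196). Ern1 (-0.44 ± 0.15, adjusted p = 0.12, and 0.07 ± 0.16) and Eif2ak3 (0.10 ± 0.12 and 0.22 ± 0.16) did not pass. Atf4, the translation-controlled factor of the PERK arm, fell on the chimpanzee diet (-0.27 ± 0.07, adjusted p = 0.02), while its target Ddit3 (CHOP) rose there (0.48 ± 0.14, adjusted p = 0.0278) and was at 0.10 ± 0.11 on the human diets. Trib3, a pseudokinase induced by that arm, fell on both (-0.58 ± 0.11, adjusted p = 0.00239, and -0.69 ± 0.12, adjusted p = 0.000334). Its means were low, at 4.37 on pellets, 3.68 on the chimpanzee, 3.87 on the cafeteria and 3.70 on the fast food diet. The level set for expression was 3.15. Ppp1r15b, a phosphatase subunit that restores translation, rose on both (0.55 ± 0.14, adjusted p = 0.0241, and 0.57 ± 0.16, adjusted p = 0.019). The remaining calls on the human diets were the membrane-bound factors Creb3 (-0.30 ± 0.08, adjusted p = 0.029) and Creb3l3 (0.32 ± 0.08, adjusted p = 0.029). These counts were small and unsteady. On the human diets the 2 lower calls became 1 without any pellet mouse other than replicate 2 of batch 1, and the 2 higher calls became 0 without pellet replicate 1 or 2 of batch 2 and 1 without pellet replicate 1 or 2 of batch 1. On the chimpanzee diet the 2 lower calls became 1 without chimpanzee diet replicate 2 of either batch or pellet replicate 1 or 3 of batch 1 or 3 of batch 2, and the 3 higher calls became 1 without chimpanzee diet replicate 3 of batch 1.

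Genes for removing misfolded proteins were split too, with 5 of 23 lower and 1 higher on the human diets, against 2.82% and 2.15% of all genes. On the chimpanzee diet 4 were lower and 2 higher, against 7.43% and 2.93%. Herpud1, a stress-inducible organiser of the ubiquitin ligase complex of the ER membrane, rose in both comparisons, from 8.98 to 9.55 on pellets (median 9.45) to 9.72 to 10.51 (median 9.95) on the cafeteria diet, 9.55 to 10.46 (median 9.96) on fast food and 10.07 to 10.97 (median 10.61) on the chimpanzee diet. All mice of the other diets lay above all pellet mice. The increase was 0.64 ± 0.11 on the human diets (adjusted p = 0.00159) and 1.17 ± 0.13 on the chimpanzee diet (adjusted p = 3.03e-06), and the human diets were lower than the chimpanzee diet by limma (-0.53 ± 0.12, adjusted p = 0.0286). Syvn1 (HRD1), the ligase itself, was at 0.0073 ± 0.08 on the human diets and rose on the chimpanzee diet (0.59 ± 0.15, adjusted p = 0.0123), and it was also lower on the human than on the chimpanzee diet (-0.58 ± 0.14, adjusted p = 0.043). These were the 2 of 23 genes called between those diets, where 0.344% of all genes were called lower and 1.15% higher. The count became 0 without chimpanzee diet replicate 2 or 3 of batch 1 or 1 or 2 of batch 2, fast food replicate 3 of batch 2 or cafeteria replicate 2 of either batch, and 1 without chimpanzee diet or cafeteria replicate 1 of batch 1, any fast food mouse of batch 1 or fast food replicate 1 of batch 2. Edem2, a mannosidase that marks glycoproteins for disposal, fell on both diets (-0.68 ± 0.12, adjusted p = 0.00115, and -0.60 ± 0.14, adjusted p = 0.00718), as did the channel protein Derl2 (-0.50 ± 0.11, adjusted p = 0.0121, and -0.40 ± 0.12, adjusted p = 0.0264). Derl1 fell on the human diets (-0.37 ± 0.10, adjusted p = 0.0349), and the lower count there was completed by Selenok (-0.46 ± 0.12, adjusted p = 0.036) and Ubxn4 (-0.45 ± 0.13, adjusted p = 0.0478). On the chimpanzee diet it was completed by Selenok (-0.52 ± 0.13, adjusted p = 0.0123) and Edem1 (-0.52 ± 0.14, adjusted p = 0.022), all 3 named after their values were seen. The 5 lower calls on the human diets became 1 without pellet replicate 1 of batch 1, 2 without pellet replicate 2 or 3 of batch 2 or replicate 2 of batch 1 on fast food or the cafeteria diet, and 3 without pellet replicate 3 of batch 1 or 1 of batch 2 or cafeteria replicate 1 of batch 1 or 2 of batch 2. The 4 on the chimpanzee diet became 2 without pellet replicate 3 of batch 2.

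The highest Syvn1 values, 7.54 and 7.16, belonged to chimpanzee diet replicates 2 and 3 of batch 1, the mice in which Creld2, Manf and Hspa5 were at the pellet level, while the other 4 mice of that diet lay between 5.95 and 6.35. The same pair had the highest Dnajb9 (8.77 and 8.70), the highest Ddit3 (5.98 and 5.55) and the highest Hspa1b (7.92 and 7.96). Replicate 2 of batch 2, with the lowest Creld2 and Manf of the diet, had the lowest Syvn1 (5.95), Dnajb9 (6.88), Ddit3 (5.00) and Hspa1b (5.31). That array also had the highest beta-actin 3′ minus 5′ signal difference of all 24, a sign of RNA quality, at 1.34 against 1.11 for the next, and a 90th percentile of 5.87, among the 4 lowest. The part of these array values in the expression of that mouse was not tested. The values of Syvn1, Dnajb9, Ddit3 and Hspa1b are not adjusted for batch. On pellets Syvn1 was 6.08 to 6.23 in batch 1 and 5.59 to 5.83 in batch 2, and Dnajb9 7.13 to 7.32 and 6.11 to 7.05. Ddit3 (4.79 to 4.97 and 4.86 to 4.95) and Hspa1b (5.21 to 5.99 and 4.94 to 5.26) overlapped between the batches there. The part of batch in the order of the mice was not tested. These are descriptions of single mice with no test.

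Genes that act before folding, for the channel, the signal peptidase and the transfer of sugars, had negative differences throughout. Of 35 genes of ER translocation and glycosylation, 9 fell and 0 rose on the human diets (limma), against 2.82% and 2.15% of all genes. On the chimpanzee diet 12 fell and 0 rose, against 7.43% and 2.93%. An unadjusted p under 0.05 was reached by 18 and 19 genes, and the share of all genes at that threshold was not counted. The difference was negative for 35 of 35 in each comparison, with medians of -0.26 and -0.32. Over the alternatives in processing the lower counts ran from 0, in batch 2 alone, to 18 and 17. Calls over all genes, lower and higher together, ran from 25, also in batch 2 alone, to 1384 and 2342. Ddost, a subunit of the oligosaccharyltransferase, fell on both diets, with -0.50 ± 0.08 (adjusted p = 0.000908) and -0.64 ± 0.11 (adjusted p = 0.0003). Its partner Ostc was at -0.82 ± 0.15 (adjusted p = 0.00212) and -0.89 ± 0.19 (adjusted p = 0.0039), and Rpn1, a further subunit, at -0.48 ± 0.16 (adjusted p = 0.119) and -0.97 ± 0.20 (adjusted p = 0.00189). The signal peptidase subunit Spcs2 fell as well, with -0.58 ± 0.10 (adjusted p = 0.00103) and -0.55 ± 0.13 (adjusted p = 0.00864). Sec61a1, the pore of the channel, fell on the human diets (-0.55 ± 0.10, adjusted p = 0.00221) and was at -0.36 ± 0.13 on the chimpanzee diet (adjusted p = 0.088).

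For the step after folding, 30 genes of ER to Golgi transport were tested. On the human diets 9 fell and 0 rose by limma, against 2.82% and 2.15% of all genes. There 17 had an unadjusted p under 0.05, again with no share of all genes counted. On the chimpanzee diet 8 fell and 1 rose, against 7.43% and 2.93%, so that the 1 higher call was near the share of all genes. The coat subunit Copg1 (-0.71 ± 0.14, adjusted p = 0.00253, and -0.66 ± 0.17, adjusted p = 0.0125), the cargo receptors Surf4 (-0.46 ± 0.08, adjusted p = 0.000908, and -0.31 ± 0.09, adjusted p = 0.0341) and Tmed9 (-0.75 ± 0.17, adjusted p = 0.00907, and -0.63 ± 0.20, adjusted p = 0.0461) and the coat subunit Sec13 (-0.50 ± 0.11, adjusted p = 0.00804, and -0.41 ± 0.13, adjusted p = 0.0486) fell on both. On the chimpanzee diet the call was lost in 27 of 40 alternatives for Sec13 and in 23 of 40 for Tmed9, and the 8 lower calls became 0 with batch left out. Sec31a, which pairs with Sec13 in the outer coat, was at 0.18 ± 0.09 on the human diets and rose on the chimpanzee diet (0.38 ± 0.10, adjusted p = 0.00977). The count of 9 dropped to 4 without pellet replicate 1 of batch 1, 2 of batch 2 or 3 of batch 2. The count of 8 dropped to between 2 and 4 without any of 8 mice, which were chimpanzee diet replicates 1 of batch 1 and 1 and 2 of batch 2 and the pellet mice other than replicate 2 of batch 1.

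Among chaperones outside the ER more genes rose than fell. Of 26 cytosolic and mitochondrial chaperones, 6 rose and 1 fell on the human diets, against 2.15% higher and 2.82% lower over all genes. On the chimpanzee diet 8 rose and 1 fell, against 2.93% and 7.43%. The 1 lower call was thus not above the share of all genes on the chimpanzee diet and near it on the human diets. The medians were 0.15 and 0.16. Hsph1, a large Hsp70-like exchange factor of the cytosol, ranged from 4.56 to 6.47 on pellets (median 5.30), 6.0 to 7.80 (median 6.62) on the cafeteria diet, 6.10 to 7.50 (median 6.70) on fast food and 5.86 to 8.35 (median 7.24) on the chimpanzee diet. It rose by 1.31 ± 0.17 (adjusted p = 0.000108) and 1.96 ± 0.25 (adjusted p = 1.44e-05), with 1.15 and 1.47 in the 2 batches for the human diets. Hspa1b, the heat-inducible Hsp70, rose by 1.05 ± 0.19 (adjusted p = 0.0017) and 1.63 ± 0.30 (adjusted p = 0.000885), its J protein Dnajb1 by 0.54 ± 0.09 (adjusted p = 0.00112) and 0.82 ± 0.17 (adjusted p = 0.00263), and the Hsp90 partner Chordc1 by 0.80 ± 0.15 (adjusted p = 0.00192) and 0.71 ± 0.21 (adjusted p = 0.0336). Fkbp5, a glucocorticoid-responsive partner of Hsp90, and Bag3, an Hsp70 co-chaperone, rose on the chimpanzee diet (0.86 ± 0.15, adjusted p = 0.000394, and 0.67 ± 0.14, adjusted p = 0.0026) and were lower on the human diets than on the chimpanzee diet (-0.74 ± 0.14, adjusted p = 0.0105, and -0.55 ± 0.13, adjusted p = 0.035). The gene that fell in both comparisons was Cct3, a subunit of the cytosolic chaperonin (-0.42 ± 0.12, adjusted p = 0.0474, and -0.57 ± 0.14, adjusted p = 0.0106), and Trap1, the Hsp90 of mitochondria, was higher on the human than on the chimpanzee diet (0.31 ± 0.07, adjusted p = 0.0405), both named after their values were seen. Between the human and chimpanzee diets 2 of the 26 were thus lower and 1 higher, against 0.344% and 1.15% of all genes. The calls of Cct3 on the human diets and of Trap1 were each lost without any 1 of 13 of the 18 mice. The 2 lower calls between human and chimpanzee diets became 1 without any 1 of 9. Between the cafeteria and fast food diets 0 genes of any of these lists passed by limma, and at most 3 of a list had an unadjusted p under 0.05.

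**Figure D5:**
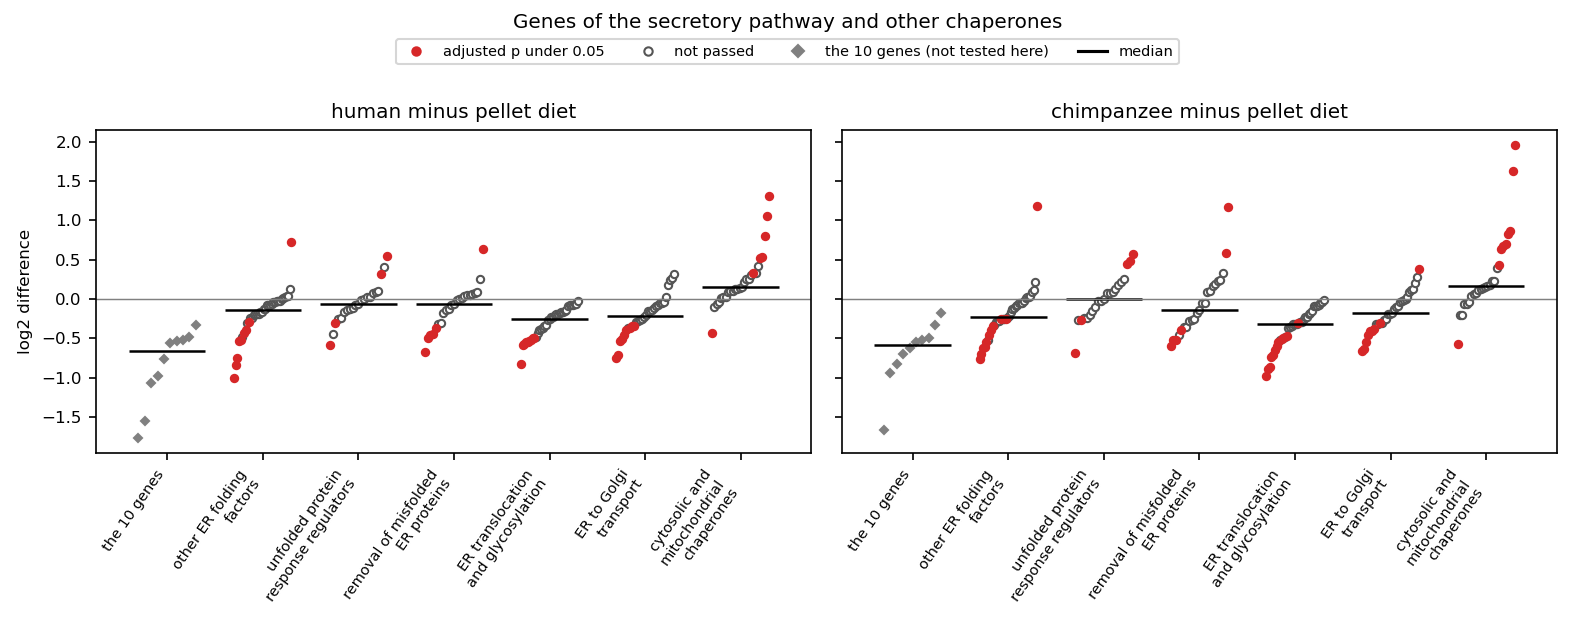
Log2 differences from the pellet diet for genes of 7 lists, for the human diets (left) and the chimpanzee diet (right), ordered by size within a list, with the median as a line. Red points passed an adjusted p of 0.05, open points did not, and the 10 genes (grey) were not tested here because these values were taken as those by which they were chosen. Translocation and glycosylation lie below 0 throughout. Of the 26 cytosolic and mitochondrial chaperones 6 and 8 passed above 0 and 1 below it in each panel. Over all genes 2.15% and 2.93% passed above 0, and 2.82% and 7.43% below it.

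Values that moved with diet or batch follow for the set as a whole. The counts above were smaller within a batch of 3 mice per diet. Over all genes, 666 were called on the human diets against pellets with both batches, 414 in batch 1 alone and 25 in batch 2 alone, and 1387, 1060 and 25 on the chimpanzee diet. The 90th percentile of an array's log2 values was 6.41 to 6.61 in batch 1 and 5.66 to 6.34 in batch 2, with 3 mice of each diet in each. The beta-actin control probe sets, whose 3′ minus 5′ signal rises as RNA is degraded or copied incompletely, differed by 0.75 ± 0.14 (SD, n = 6) on pellets, 1.08 ± 0.15 on the chimpanzee diet, 0.91 ± 0.05 on the cafeteria diet and 0.80 ± 0.13 on fast food. With this difference as a covariate, the median of the 10 genes was -0.70 for the human diets and -0.43 for the chimpanzee diet, and the 10 lower calls among other ER folding factors on the chimpanzee diet fell to 0. Calls over all genes fell too, from 1387 to 211 on the chimpanzee diet against pellets and from 200 to 5 between the human and chimpanzee diets. For the cell type markers that follow, the shares called over all genes were 2.82% lower and 2.15% higher on the human diets. On the chimpanzee diet they were 7.43% and 2.93%. Hepatocyte markers were strongly expressed on all diets, with a summed level between 14.67 and 15.21 (log2). Of 11 tested 0 fell and 1 rose on the human diets, and 0 fell and 2 rose on the chimpanzee diet. Of 12 Kupffer cell and macrophage markers 0 were called on the human diets by limma (2 had an unadjusted p under 0.05), with 11 of 12 differences negative and a median of -0.33. In the chimpanzee diet mice 5 fell, with 11 of 12 negative and a median of -0.68, and the median of the summed level was 10.02 against 10.63 on pellets. That level ranged from 9.997 to 10.90 on pellets and from 8.89 to 10.26 on the chimpanzee diet, so that the 2 overlapped. It was 8.85 to 10.73 on the cafeteria diet and 9.81 to 10.81 on fast food. Of 11 plasma and B cell markers 6 were expressed, 4 of them within 1 of the level set for expression. Ighm, the heavy chain of immunoglobulin M, was named after its values were seen. It fell on the human diets (-1.04 ± 0.13, adjusted p = 7.03e-05) and the chimpanzee diet (-1.18 ± 0.17, adjusted p = 6.32e-05). For human minus pellet, limma called 1 of the 6 lower, which was Ighm, and the median difference of the list was only -0.074. For chimpanzee minus pellet 2 of the 6 were called lower, Ighm among them, with a median of -0.117. In both comparisons 5 of the 6 markers had a negative difference, and 0 of the 6 markers were called higher. Their summed level was 9.15 to 9.86 on pellets, 8.37 to 8.98 on the chimpanzee diet, 8.61 to 9.62 on the cafeteria diet and 8.25 to 9.44 on fast food, and Ms4a1, Pou2af1 and Tnfrsf17 were among those that did not lie above the level set for expression. Igkc had no probe set under its symbol. Pancreatic acinar markers, of which 8 of the 9 expressed lay within 1 of that level, were not called on any diet by limma (at most 1 had an unadjusted p under 0.05). Their summed level was 8.48 to 9.17 on pellets, 8.02 to 8.79 on the chimpanzee diet, 8.31 to 9.01 on the cafeteria diet and 8.45 to 8.97 on fast food. Of 12 endothelial and stellate cell markers 0 were called on the human diets and 1 fell on the chimpanzee diet, near the share of all genes. Of 4 bile duct markers 0 were called on either (limma; 0 had an unadjusted p under 0.05 in the counts of 0). The part of these values in the differences of the 10 genes was not tested.

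Outside all lists, the genes whose values, centred within each batch, followed the mean of the 10 most closely over the 24 mice were Slc35b1 (Pearson r = 0.923, Spearman rho = 0.899), Pnpla7 (0.886, 0.880), Insig2 (0.885, 0.856), Cdk5rap3 (0.870, 0.851) and Ethe1 (0.857, 0.654). They were picked as the best of all genes, and the mice share diet, so that the r values describe likeness and carry no test. Without the 2 mice farthest from the median r was 0.905, 0.923, 0.871, 0.855 and 0.813. Slc35b1 went from a mean of 7.93 ± 0.22 (SD, n = 6) on pellets to 7.05 ± 0.62 on the chimpanzee, 7.10 ± 0.35 on the cafeteria and 6.98 ± 0.53 on the fast food diet. For Ethe1, whose rank correlation was the lowest of the 5, the means were 8.83 ± 0.32, 7.02 ± 0.45, 7.06 ± 0.27 and 7.02 ± 0.37, so that it separated pellets from the rest and did not order the mice of the other diets in the same way.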

How the data were processed

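Liver RNA of 24 mice was hybridised to Affymetrix arrays that cover the mouse genome, 1 per mouse. The authors deposited log2 expression values per probe set, made with rma (robust multichip average, with quantile normalization) of the Bioconductor package affy. The sources used here give neither the package version nor whether brain arrays were normalized together with liver. Groups, batches and replicate numbers were taken from the labels. Littermates had been spread over diets, but litter is in no fit.

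Of 45101 probe sets, 64 controls were set aside, 34945 carried 1 gene symbol in the platform annotation, 932 several and 9160 none, and 25541 exceeded 3.15, the table's median, on 6 arrays or more. The probe set with the highest mean stood for a gene, which left 13384 genes. Batch-adjusted linear models were fitted by lmFit and eBayes (limma 3.58.1, R 4.3.3), with Benjamini-Hochberg adjustment over all genes, two-sided, and an adjusted p of 0.05. Comparisons of the human diets used 18 mice, and the others all 24. The fit was tested on simulated data. Intervals are 95% intervals of the fit. Counts at an unadjusted p under 0.05 stand without the share of all genes at that threshold, which was not counted. The number of arrays limits the precision, and a p-value compares a difference with the spread between these mice.

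The 10 genes, the lists and the markers were chosen with earlier results of these data known. Named genes were the 10 genes, the 4 of each list with the smallest p for human minus pellet, up to 2 called in each other comparison, Xbp1, Atf6, Ern1, Eif2ak3, Atf4 and Ddit3, and the 5 genes most like the mean of the 10. Promoter sequences are from RefSeq. Protein sequences were not used here. Alternatives changed the filter, probe set, batch, block, normalization, covariates, weights, model and mice.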

Additional observations from a re-analysis of the deposited data

Results flagged for a closer look

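In 13 of 188 groups of 6 mice, formed from 47 named genes on 4 diets, 1 mouse lay so far from the other 5 that its gap passed Dixon's 95% criterion, and chance alone marks about 1 group in 20. Fast food replicate 2 of batch 2 accounted for 8 of them, always as the lowest mouse: Pdia6 (7.94), Dnajb9 (6.56), Xbp1 (8.25), Derl1 (6.58), Ddost (7.29), Ostc (6.65), Rpn1 (7.32) and Chordc1 (5.97). That array had the lowest 90th percentile of the fast food mice (5.85, the next 6.19), and its part in these values was not tested. Among cafeteria mice, replicate 1 of batch 2 was lowest for Hspa13 (5.39) and Ddit3 (4.55), replicate 3 of batch 2 for Creb3l3 (8.91), and replicate 3 of batch 1 was highest for Ddost (8.19). Among pellet mice, replicate 1 of batch 1 was highest for Manf (8.64). Of the 10 ER genes, Manf and Pdia6 were thus the only ones with such a mouse.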

How the results depend on the processing

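The median of the 10 genes kept its sign against pellets under every alternative run, between -0.76 and -0.57 for the human diets (34 alternatives) and between -0.79 and -0.35 for the chimpanzee diet (40). The sign of the chimpanzee diet difference from pellets turned for Hspa5, at 0.206 when the probe set of smallest p stood for the gene and under the methods' model, 0.115 in batch 1 alone and 0.161 with the beta-actin difference as a covariate, and for Manf, at 0.0021 in batch 1 alone and 0.250 with that covariate. Other folding factors called lower on the human diets (8) numbered 4 with batch left out, 4 in batch 1 alone, 1 in batch 2 alone, 5 with the beta-actin covariate and 5 to 9 without 1 mouse, and the 1 higher became 0 with batch left out and in batch 2 alone. On the chimpanzee diet the 10 lower numbered 3 with batch left out, 4 in batch 1 alone, 0 in batch 2 alone, 6 with cyclic loess, 0 with the beta-actin covariate, 4 without the 4 arrays of lowest 90th percentile and 3 to 11 without 1 mouse, and the 1 higher became 0 in batch 2 alone and 2 with the 90th percentile as a covariate. Of the 10 genes, 1 (Creld2) was called between human and chimpanzee diets with array weights and without those 4 arrays, and 0 to 1 without 1 mouse. Calls over all 13384 genes numbered 1272 with array weights and 369 without those 4 arrays, against 200 as reported. Over the same alternatives Hsph1 passed in 34 of 34 and 40 of 40. For the human and the chimpanzee diets against pellets, lower calls over 16 alternatives ran from 0 to 18 and 0 to 17 for translocation and glycosylation (9 and 12 as reported), 0 to 14 and 0 to 10 for ER to Golgi transport (9 and 8), 0 to 7 and 0 to 8 for removal of misfolded proteins (5 and 4) and 0 to 4 and 0 to 3 for the regulators (2 and 2). Higher calls ran from 0 to 3 and 0 to 4 for the regulators (2 and 3) and 1 to 12 and 1 to 13 for the cytosolic and mitochondrial chaperones (6 and 8). Calls over all genes, lower and higher together, ran from 25 to 1384 (666 as reported) and from 25 to 2342 (1387) over these alternatives. Within a single batch fewer mice entered each fit, and otherwise the cause of these changes was not tested.

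For mice with the same number, r between their deviations ran from -0.63 to 0.41, with a median of 0.012 (36 pairs). For mice with different numbers it ran from -0.55 to 0.63, with a median of -0.024 (72 pairs). Both ranges are wide and they overlap, so whether the numbers pair mice cannot be decided from these values. With the replicate block, 7 and 9 other folding factors were lower and 1 and 1 higher, and the medians of the 10 genes stayed at -0.66 and -0.59.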
